A study of Mus musculus with 5 samples.

Results

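The cytotoxic effector genes described here are *Gzma*, *Gzmb*, *Gzmm*, *Prf1*, *Nkg7*, *Ccl5* and *Ifng*, 7 named genes of the 28692 in the matrices. They were chosen by name, and their counts were read in every barcode with at least 500 unique molecular identifiers (UMIs, tags that mark captured transcripts) across natural killer (NK), T and other cells of the bone marrow. All 7 had UMIs in these barcodes, from 46 for *Prf1* to 44476 for *Ccl5*.

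Cytotoxic lymphocytes kill by releasing granules. Perforin opens the target membrane and lets granzymes, a family of serine proteases, reach the inside of the cell, where granzyme B activates caspases and the other granzymes cut further proteins. NK cells are known to carry these granules before they meet a target, whereas CD8 T cells acquire them largely after activation, and the same cells release the chemokine CCL5 and the cytokine interferon gamma.

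The study profiled bone marrow cells of non-irradiated, immunocompetent C57BL/6J mice by droplet-based single-cell RNA sequencing of transcript 3′ ends. The mice were purchased at 8 weeks of age. Every mouse, the day 0 animal included, received 1000 BCR-ABL1+ pre-B acute lymphoblastic leukemia cells by tail vein, and 1 mouse was taken on each day, namely 0, 3, 6, 9 or 12. The day 0 mouse was euthanized immediately after injection, so it stands for marrow before leukemia growth and not for an uninjected animal. Cells came from crushed, enzyme-digested bone and flushed marrow and were cryopreserved before sequencing. With 1 library per day no test between days could be made, and a day cannot be told apart from the mouse, the preparation or the sequencing of that library. All intervals below are 95% intervals that cover counting error only.

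The libraries held 5474 to 7604 barcodes with at least 500 UMIs (32135 in all) and 33425695 to 43554233 UMIs, with a median of 2874 to 3786 UMIs per barcode. Classes of cells came from clustering in which the 7 genes and the related gene lists took no part. The NK-like class had 95, 29, 58, 79 and 64 cells in the libraries in order of day. *Klre1* was found in 81.0 to 89.7% of them and *Klrb1c* in 73.4 to 84.5%, while *Cd3e* reached at most 6.9% and *Cd8b1* at most 2.5%. Other T cell markers were more frequent, with *Trbc1* in 49.4 to 62.1%, *Trbc2* in 25 to 34.5% and *Cd3d* in 10.9 to 24.1%. *Cd3g*, *Trac* and *Lat* were each in at most 15.8%. The gamma delta T marker *Trdc* was in 9.4 to 27.6%, and *Tcrg-C1*, *Tcrg-C2* and *Tcrg-C4* were each in at most 7.4%. CD8 T-like cells numbered 342, 59, 111, 122 and 73, with *Cd8b1* in 64.4 to 82.9% and *Klre1* in at most 1.46%. Of the other NK markers, *Klrd1* was in 32.2 to 38.4% of them, *Txk* in 24.6 to 34.2% and *Klrk1* in at most 3.28%. The leading genes of their clusters included *Ccr7*, *Lef1* and *Igfbp4*, genes of naive T cells, so they do not represent CD8 T cells at large. CD4 T-like cells numbered 24, 8, 47, 36 and 3. Their leading genes included *Foxp3* and *Ctla4*, genes of regulatory T cells, so they do not represent CD4 T cells at large, and values for days 3 and 12 rest on 8 and 3 cells. Gamma delta T-like cells numbered 71, 33, 23, 30 and 31. *Trdc* was found in 30 to 74.2% of them, *Tcrg-C2* in 29.6 to 54.5% and *Tcrg-C1* in 22.5 to 39.1%. *Trbc2* was in 77.4 to 93.3%, *Trac* in 9.68 to 50% and the NK marker *Klrd1* in 60 to 67.6%. A higher cluster resolution gave this name to 92 cells instead of 188, so the class depends on how it is drawn. A further 723 cells met the T cell markers but neither the CD8 nor the CD4 set and are called undivided T cells. *Cd8b1* was found in 11.4 to 22.0% of them. Their clusters were led by genes such as *Klra6*, *Cxcr6*, *Ramp3* and *Cd160*, and 395 T or NK barcodes in clusters of mixed or unclear genes were left unnamed. At day 0, 195 of the CD8 T-like cells came from 1 cluster led by *Dapl1* that held 272 cells in all.

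The genes lie on 5 chromosomes of the mouse assembly GRCm38 (mm10), each as a protein-coding gene in the GENCODE annotation. *Gzma* spans chr13:113093825-113100981 on the minus strand and *Gzmb* chr14:56258838-56262260 on the minus strand. *Gzmm* (chr10:79689020-79695261), *Prf1* (chr10:61297833-61304680) and *Ifng* (chr10:118441046-118445892) lie far apart on the plus strand of chromosome 10. *Nkg7* spans chr7:43437073-43438249 on the plus strand and *Ccl5* chr11:83525778-83530518 on the minus strand. RefSeq promoter sequences of this build were matched for 6 of the 7 genes, all but *Ccl5*. Shown are 3 of them, *Gzma* and *Gzmb* because their levels over cell classes were the most alike of the granzymes, and *Nkg7* because it alone was also high in some clusters of progenitor-like cells. The lines give the bases before the start, 5′ to 3′ on the gene's own strand, for chr13:113100982-113101231, chr14:56262335-56262584 and chr7:43436888-43437072 in turn. Capitals mark matches on either strand to a Runx motif (TGTGGT) or a STAT motif (TTCNNNGAA).

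Gzma: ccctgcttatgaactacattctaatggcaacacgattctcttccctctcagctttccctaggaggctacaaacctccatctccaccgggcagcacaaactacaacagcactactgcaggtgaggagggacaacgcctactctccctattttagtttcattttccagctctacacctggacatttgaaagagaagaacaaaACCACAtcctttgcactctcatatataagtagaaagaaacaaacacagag
Gzmb: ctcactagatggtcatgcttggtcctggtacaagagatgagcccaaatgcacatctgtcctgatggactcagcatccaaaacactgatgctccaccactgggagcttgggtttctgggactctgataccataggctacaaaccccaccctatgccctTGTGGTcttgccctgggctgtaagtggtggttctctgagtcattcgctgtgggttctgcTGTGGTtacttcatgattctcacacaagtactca
Nkg7: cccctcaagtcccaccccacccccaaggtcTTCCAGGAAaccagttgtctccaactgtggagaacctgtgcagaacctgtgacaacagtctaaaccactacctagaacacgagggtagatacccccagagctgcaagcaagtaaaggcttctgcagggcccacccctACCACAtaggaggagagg

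The Runx letters, the core that Runx3 binds, occurred in the 250 bases before a start of *Gzma*, *Gzmb*, *Gzmm*, *Prf1* and *Nkg7*, against 14.0% of all 32851 promoters of that length. The STAT letters occurred in those of *Gzmm*, *Nkg7* and *Ifng*, against 7.02% of all. The letters GGTGTGA of a T-box motif occurred before *Nkg7*, close to the RefSeq start and beyond the stretch printed, and before the downstream start of *Gzmm*, against 3.33% of all. Neither a C/EBP motif (TTGCNNAA, in 9.56% of all) nor a PU.1 motif (GAGGAAGT, in 2.44%) occurred in any of the 6. These are matches of letters and not sites shown to be bound.

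Levels are given as UMIs of a gene per 10000 UMIs of all genes, summed over the cells of a class in a library. NK-like cells carried *Gzma*, *Gzmb*, *Nkg7*, *Ccl5* and *Ifng* at a higher level in every library than any library of CD8 T-like, gamma delta T-like or undivided T cells. *Gzmm* did not follow this order. For 6 of the 7 genes the lowest NK-like library lay above the highest CD8 T-like library (*Gzma*, *Gzmb*, *Prf1*, *Nkg7*, *Ccl5* and *Ifng*), where 19.4% of the 2775 genes with UMIs in at least 10% of either class did so. *Prf1* and *Gzmm* were below that 10%. *Prf1* overlapped when classes were taken from marker UMIs, and *Prf1* and *Ifng* overlapped after thinning every cell to 500 UMIs. Against gamma delta T-like cells 5 of the 7 did so (6.19% of genes tested), with *Prf1* and *Gzmm* overlapping, and against undivided T cells 6 did (12.6%). With NK-like cells taken from marker UMIs, *Ccl5* and *Ifng* also overlapped the gamma delta T-like range. *Ifng* then overlapped the range of undivided T cells as well. The classes were built from expression in the same cells, so this is a description and no test was made.

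*Gzma*, which encodes granzyme A, was at 44.7, 54.1, 41.0, 37.3 and 52.3 UMIs per 10000 in NK-like cells from day 0 to day 12. In CD8 T-like cells it was at 0.27 at day 0 and at most 0.072 later, with 23 UMIs in 707 cells, 11 of them in 1 cell. The lowest NK-like library was far above the highest CD8 T-like one. Taken instead as any T cell with a *Cd8a* or *Cd8b1* UMI and no *Cd4* UMI, CD8 T-like cells were at 0.065 to 0.89. NK-like cells taken from marker UMIs were then at 30.5 to 44.1. Gamma delta T-like cells held 47 UMIs, of which 33 fell in 1 cell of day 9. NK-like cells had a *Gzma* UMI in 73.4 to 93.8% of cells, or 59.5 to 79.7% after every cell was thinned to 500 UMIs. In neutrophil-like cells, which should lack the gene, the share was 1.46% at a median of 2944 UMIs, against 86.5% in NK-like cells at a median of 2474.

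*Gzmb*, which encodes granzyme B, was at 1.24, 0.71, 2.65, 1.10 and 1.73 UMIs per 10000 in NK-like cells. These rested on 28, 7, 44, 23 and 26 UMIs, and at least 14 cells of each library held them except day 3, where 6 cells did. Only 2 *Gzmb* UMIs were counted in the 707 CD8 T-like cells. Taken from marker UMIs as for *Gzma*, CD8 T-like cells held 16, 1, 1, 15 and 1 from day 0 to day 12. These lay in 3, 1, 1, 7 and 1 cells. In NK-like cells 22.5% (interval 18.0 to 27.4%) had a UMI, and the 32 cells with the most held 68.0% of all *Gzmb* UMIs in the class. Among undivided T cells, the cluster led by *Ly6a* and *Cxcr6* had 14 *Gzmb* UMIs at day 0, all in 1 cell, and 10 at day 9, in 3 cells.

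*Prf1*, which encodes perforin, was at the limit of the depth. NK-like cells held 5, 1, 6, 5 and 4 UMIs, or 0.22, 0.10, 0.36, 0.24 and 0.27 per 10000, never more than 1 in a cell. CD8 T-like cells held 3, 1, 1, 1 and 0 UMIs. NK-like cells made up 45.7% of the 46 *Prf1* UMIs in all barcodes (interval 30.9 to 61.0%), more than any other class. The intervals of the 5 NK-like libraries all overlapped, so no difference between them was detectable at this depth.

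*Gzmm*, which encodes granzyme M, did not follow the other granzymes. NK-like cells were at 0.18, 0.31, 0.36, 0.19 and 0.067 UMIs per 10000 (1 to 6 UMIs per library), CD8 T-like cells at 0.24, 0.072, 0.13, 0.13 and 0.25, and undivided T cells at 0.31, 0.23, 0.28, 0.14 and 0.33. The ranges of the 3 classes overlapped. NK-like cells held 8.70% of the gene's 207 UMIs (interval 5.24 to 13.4%), and the T and NK barcodes together 72.9%. The 118 CD4 T-like cells held none, which allows up to 0.15 per 10000. This made *Gzmm* the 1 gene of the 7 whose lowest CD8 T-like library was above the highest CD4 T-like library, beside 4.41% of 2495 genes tested. The limit of 0.15 lies within the CD8 T-like range of 0.072 to 0.25, and no test of the difference was made.

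*Nkg7* encodes a granule membrane protein needed for normal granule release. It was at 38.2, 38.2, 33.0, 34.2 and 43.3 UMIs per 10000 in NK-like cells and at 6.27, 5.83, 5.88, 5.81 and 5.60 in CD8 T-like cells. The CD8 T-like values varied less between libraries than those of any other gene of the set in that class. Gamma delta T-like cells at 12.5 to 20.6 and undivided T cells at 8.79 to 11.5 lay between them, and neither range reached the NK-like range above or the CD8 T-like range below. After thinning to 500 UMIs, a UMI was found in 77.5% of NK-like, 43.1% of gamma delta T-like, 35.1% of undivided T, 20.9% of CD8 T-like and 1.22% of neutrophil-like cells.

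*Ccl5* was at 132, 141, 158, 143 and 137 UMIs per 10000 in NK-like cells, found in 323 of the 325 cells. Gamma delta T-like cells were at 84.9, 65.1, 84.4, 120 and 85.9 and undivided T cells at 61.4, 56.1, 67.4, 75.6 and 69.2. These libraries lay below the NK-like ones, with the day 9 value of gamma delta T-like cells closest. NK-like cells taken from marker UMIs were at 76.1 to 134, which overlaps the gamma delta T-like range. CD8 T-like cells were lower again and spread widely, at 10.6, 3.38, 3.99, 13.4 and 8.91. In them 43 of the 707 cells had at least 10 UMIs and held 81.9% of the class's *Ccl5* UMIs. Where CD8 T-like cells were instead taken as any T cell with a *Cd8a* or *Cd8b1* UMI and no *Cd4* UMI, *Ccl5* stood at 22.7 to 29.6, so its level depends on how the class is drawn. CD4 T-like cells were at 7.05, 2.55 and 18.7 at days 0, 6 and 9.

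*Ifng*, which encodes interferon gamma, was at 1.72, 0.51, 0.60, 0.81 and 1.33 UMIs per 10000 in NK-like cells (39, 5, 10, 17 and 20 UMIs). CD8 T-like cells held 7, 0, 1, 0 and 1 UMIs. Undivided T cells were at 0.20 to 0.48, below every NK-like library, although the interval of the lowest of those, at day 3, ran from 0.17 to 1.19. NK-like cells taken from marker UMIs were at 0.27 to 1.15, which overlaps the range of undivided T cells. A UMI was found in 21.2% of NK-like cells and 5.53% of undivided T cells, against 0.091% of neutrophil-like cells.

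**Figure D1:**
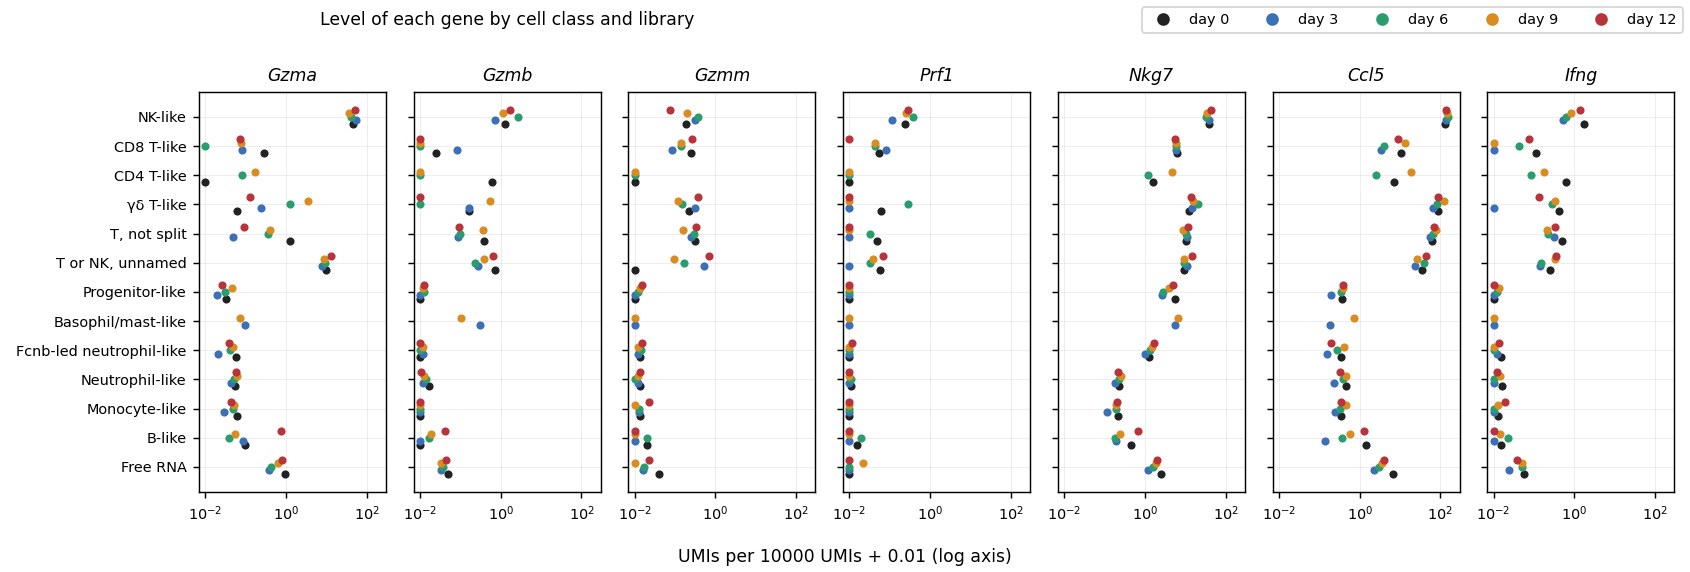
UMIs of each gene per 10000 UMIs, plus 0.01, on a log axis for 12 cell classes and for free RNA (barcodes of at most 100 UMIs), with 1 point per library colored by day and classes of under 20 cells in a library left out ("T, not split" are the undivided T cells). The NK-like points lie to the right of the CD8 T-like points for every gene but *Gzmm*, and the *Nkg7* points of progenitor-like cells lie to the right of those of neutrophil-like cells.

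Other genes of the pathway were compared in the same way between NK-like and CD8 T-like cells. Of the granule and processing genes, 3 of the 5 that passed the 10% filter lay above in every library, beside 19.4% of all genes tested, the share that also stands behind the counts of the lists that follow. These were *Ctsc*, the protease that activates granzymes, *Ctsw*, a lymphocyte cathepsin (NK-like median 3.88 against 1.16), and *Cst7*, which inhibits cathepsins (1.64 against 0.72). *Srgn*, the proteoglycan core of the granule (5.86 against 3.74), and *Lamp1* overlapped. Neither of the 2 granule release genes that passed (*Unc13d*, *Stxbp2*) separated. Of the granzyme inhibitors, *Serpinb9*, the inhibitor of granzyme B (1.24 against 0.065), and *Serpinb6b* (1.43 against 0.064) did. The other granzyme genes *Gzmc*, *Gzmd*, *Gzme*, *Gzmf*, *Gzmg*, *Gzmk* and *Gzmn* did not pass the filter, with *Gzmc* at a median of 0.044.

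All 3 chemokines of the list lay above in NK-like cells, *Xcl1* at a median of 7.43, *Ccl4* at 6.42 and *Ccl3* at 1.93 UMIs per 10000. The death ligand *Fasl* (0.72) was the 1 gene of its list to pass the filter and also lay above, while *Tnf* and *Tnfsf10* were at 0.060 and 0.095. Among transcription factors 4 of 5 tested lay above. *Id2* was at 12.3 to 18.2 against 0.62 to 1.33, *Eomes* at a median of 1.72 against 0.19, and *Runx3*, a factor that CD8 T cells also use, overlapped at 1.43 against 1.17. *Ifngr1*, a receptor for interferon gamma (3.49 against 1.15), lay above, as did 3 of 4 cytokine receptors tested, with *Il2rb* at 3.67 and *Il18rap* at 1.59 in NK-like cells and *Il18r1* as the third.

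Each gene had a different set of cells behind its UMIs. NK-like cells held 49.0 to 69.2% of the *Gzma* UMIs of a library but 24.7 to 32.5% of those of *Ccl5* and 11.7 to 15.1% of those of *Nkg7*. For *Ccl5* the undivided T cells held a median of 28.3% over libraries against 26.8% in NK-like cells, and gamma delta T-like cells 11.4%. The barcodes of all T and NK classes together, unnamed ones included, held 91.0% of the *Gzma*, 86.4% of the *Ccl5*, 85.1% of the *Ifng* and 79.8% of the *Gzmb* UMIs, but only 38.1% of the *Nkg7* UMIs. Of all *Gzma* UMIs in the libraries, 75.5% lay in barcodes of at least 500 UMIs, and the rest in smaller barcodes.

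**Figure D2:**
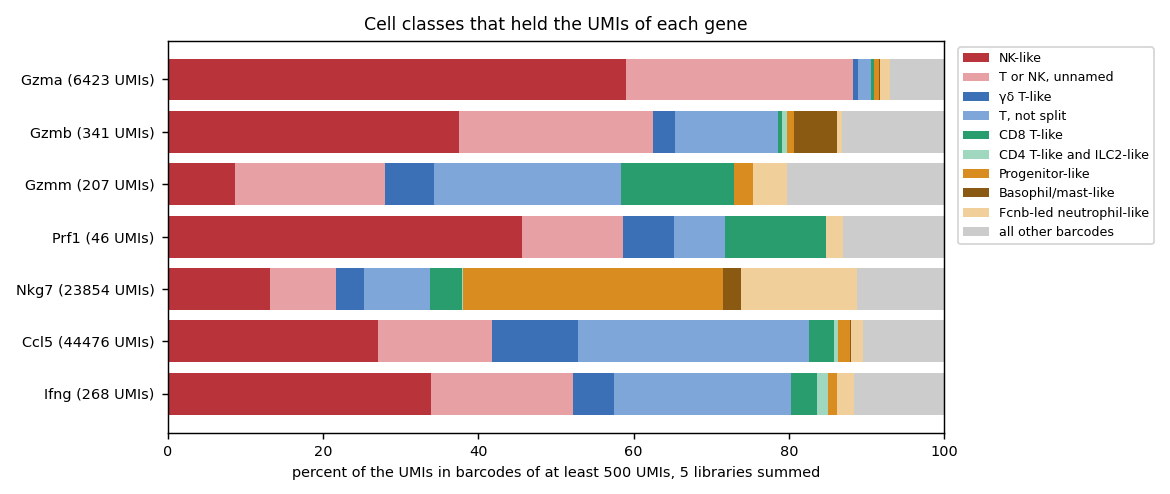
Percent of the UMIs of each gene, over the 5 libraries summed, that lay in each class of barcodes with at least 500 UMIs (colors), with the number of UMIs beside each name. NK-like cells hold 59.0% of the *Gzma* UMIs and 13.2% of those of *Nkg7*, where progenitor-like cells take the widest piece.

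The cells in unnamed T and NK clusters also held granzymes. In 97 cells led by *Vegfa* and *Crem*, *Gzma* was at 20.7 and *Gzmb* at 1.80 UMIs per 10000 over the libraries. Of these, 50 cells with an NK marker UMI (*Ncr1*, *Klrb1c* or *Klre1*) and no *Cd3d*, *Cd3e* or *Cd3g* UMI carried *Gzma* at 29.2, and 7 cells with a *Cd3* UMI and no NK marker UMI at 1.16. The 12 cells with both were at 11.9 and the 28 with neither at 19.4. *Gzmb* was at 3.21 in the cells with neither, against 2.12 in those with an NK marker UMI only. In 70 cells led by cell cycle genes such as *Top2a*, *Gzma* was at 12.5 and *Nkg7* at 13.4. These barcodes mix NK and T cells and enter none of the comparisons between classes.

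Most NK-like cells had UMIs of several of the 7 genes. The median NK-like cell had UMIs of 3 of the 7 genes and 84.6% had *Gzma*, *Nkg7* and *Ccl5* at once, from 72.2% at day 9 to 90.6% at day 12. *Nkg7* was in at least 96.9% and *Ccl5* in at least 97.9% of the cells of each library, and *Gzma* in 73.4 to 93.8%. The joint share therefore follows that of *Gzma* and shows no link between the genes within cells. No NK-like cell was without any of the 7. Among CD8 T-like cells 34.5% had none of the 7 and 0.42% had those 3 at once, at median depths of 2474 and 2066 UMIs. After thinning to 500 UMIs, 59.1% of NK-like, 3.72% of gamma delta T-like, 2.63% of undivided T and 0.28% of CD8 T-like cells had UMIs of at least 3. The spread between NK-like cells was wide for *Gzma*, whose 10th percentile was at 0, lower quartile at 13.9, median at 33.6 and 90th percentile at 107 per 10000, and narrower for *Nkg7*, with 12.9, 22.4, 34.7 and 65.2.

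The NK-like cells were also divided by genes of NK maturation, which took no part in the clustering. Cells with a UMI of the mature genes *Itgam*, *Klrg1*, *S1pr5*, *Cx3cr1*, *Cma1* or *Zeb2* were set against cells with UMIs of the immature genes *Cd27*, *Ltb*, *Emb*, *Tcf7*, *Il7r*, *Cd7* or *Ctla2a* only. *Gzma* was at 64.1, 85.5, 67.5, 60.1 and 58.5 UMIs per 10000 in cells with a mature UMI and at 32.9, 24.8, 25.1, 23.5 and 42.4 in the others, so the 2 groups did not overlap. *Gzmb* was at 1.31, 1.07, 3.67, 2.36 and 2.89 against 1.03, 0.42, 2.04, 0.44 and 0.46, higher in each library although the ranges overlapped, on 2 to 23 UMIs a group. *Nkg7* and *Ccl5* were also higher in 5 of 5 libraries, by medians of 0.34 and 0.56 on the log2 scale, where *Gzma* differed by 1.35. Of the 3188 genes tested, 6.49% were higher in all 5. *Ifng* was higher in 3 libraries, and *Gzmm* and *Prf1*, below the filter, in 4 each. With 5 pairs an exact permutation of signs, two-sided, cannot give a p below 0.0625, so no difference could pass 0.05. Over the libraries, the median depth was 2566 UMIs in cells with immature UMIs only, 2639 in cells with both and 1778 in the 18 with mature UMIs only.

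**Figure D3:**
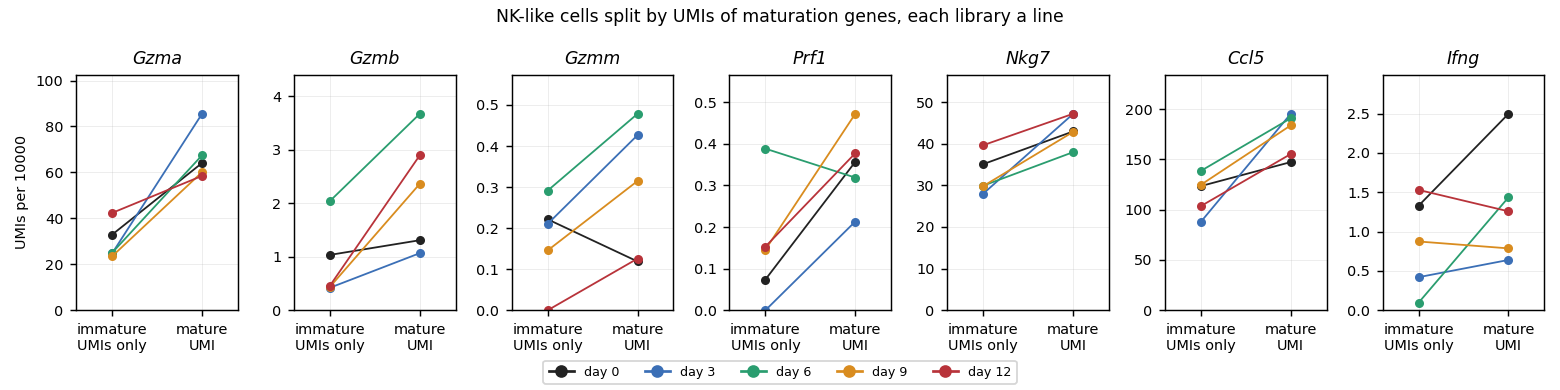
UMIs per 10000 in NK-like cells with UMIs of immature genes only (left) and in those with a UMI of a mature gene (right), with 1 line per library colored by day. Lines for *Gzma*, *Gzmb*, *Nkg7* and *Ccl5* slope up in all 5 libraries, and those of *Ifng* do not.

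Across days, the abundant genes of NK-like cells changed little. Each later day was set against day 0 on log2 of the level plus 0.1, with a limit of 1.5-fold for genes found in at least 10% of the cells of either day. The 4 comparisons share the day 0 library. *Gzma*, *Nkg7* and *Ccl5* stayed within 1.5-fold on every day, with ratios to day 0 of 0.83 to 1.21, 0.87 to 1.13 and 1.03 to 1.19. Of the 7 genes, 5 were tested at day 3, with 2 lower and 0 higher, against a background of 16.7% lower and 21% higher among all genes tested. At day 6 all 7 were tested, with 1 lower and 2 higher (background 12.5% and 17.4%), at day 9 there was 1 lower of 5 (15.6% and 12.4%), and at day 12 none of 5 was past the limit (13.7% and 16.3%). The members' median log2 change was 0.0034, 0.26, -0.16 and 0.18, beside 0.09, 0.07, -0.02 and 0.02 over all genes tested.

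*Ifng* accounted for 3 of the 4 values past the limit on the lower side. The ratio to day 0 was 0.30 (interval 0.091 to 0.75) at day 3, 0.35 (0.16 to 0.71) at day 6, 0.47 (0.25 to 0.85) at day 9 and 0.77 (0.43 to 1.36) at day 12. It was found in 26 of 95 NK-like cells at day 0 and in 3 of 29, 10 of 58, 14 of 79 and 16 of 64 later. *Gzmb* was lower at day 3, with a ratio of 0.58 whose interval of 0.21 to 1.35 spans no change, and higher at day 6, at 2.14 (1.30 to 3.56). *Gzmm* passed the limit at day 6 on 6 UMIs against 4, with an interval of 0.48 to 9.83. With every cell thinned to 500 UMIs, *Ifng* was found in 6, 0, 1, 3 and 6 NK-like cells and did not reach the 10% needed to be compared, and *Gzmb* reached it at day 6 alone, where it stayed within 1.5-fold.

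*Xcl1* and *Ccl4*, chemokine genes of the list, were past the limit on the lower side at days 3, 6 and 9, and *Ccl3* at days 6, 9 and 12, beside the 12.5 to 16.7% of all genes tested that were lower on a day. *Xcl1* was at 11.8 UMIs per 10000 at day 0 and at 4.18, 5.41, 7.43 and 7.87 on the later days, and *Ccl4* at 10.6 and then 6.42, 1.86, 3.86 and 8.74. *Ccl3* was at 3.45 and then 4.59, 0.84, 1.24 and 1.93. The mature NK list had 1, 2, 3 and 2 of 2, 3, 4 and 3 tested genes past the limit on the higher side, beside 21, 17.4, 12.4 and 16.3% of all genes tested, with *Zeb2* lower at day 9 and *Cma1* at 0.35 at day 0 and 0.82, 0.60, 0.67 and 1.07 later. Of the immature list, 4 of 6 tested genes were lower at day 3 and 2 of 6 at day 12, and none of 7 was past the limit at day 6 or 9. NK-like cells with a mature UMI made up 32.6, 48.3, 41.4 and 35.4% of the class at days 0 to 9 and 32 of 64 cells at day 12. UMIs of 8 neutrophil markers in NK-like cells summed to 182 to 279 per 10000, lowest at day 0 and highest at day 12, with 6 of the 8 found in at least 20% of cells in every library, and their part in the results was not tested.

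**Figure D4:**
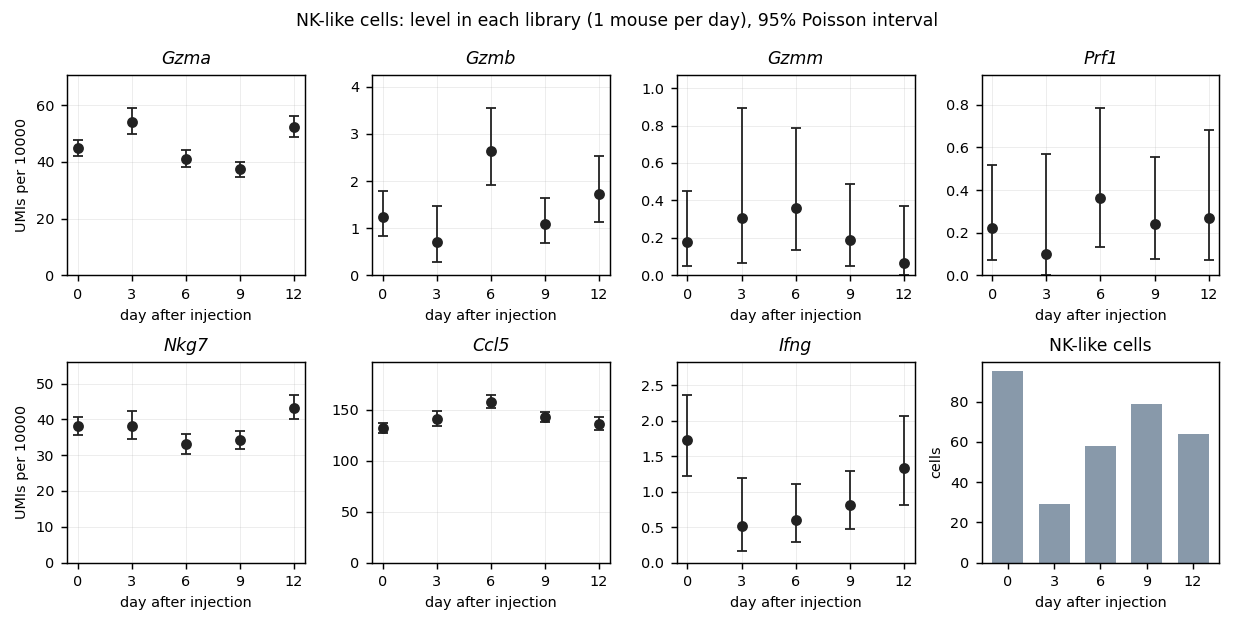
UMIs of each gene per 10000 in NK-like cells of each library (points, with 95% Poisson intervals) against the day after injection, and the number of NK-like cells (bars). *Ifng* is at 1.72 at day 0 and 0.51 to 1.33 later, while *Gzma*, *Nkg7* and *Ccl5* stay within 1.5-fold of day 0.

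In the T cell classes 2 of the 7 genes, *Nkg7* and *Ccl5*, were frequent enough to compare, with *Gzmb* added in gamma delta T-like cells at day 9. Among CD8 T-like cells *Ccl5* was past the limit at day 3 (ratio 0.32, interval 0.23 to 0.43) and day 6 (0.38, 0.31 to 0.46) on the lower side, where 9.74% and 6.13% of genes tested were. Most *Ccl5* UMIs of the class lay in 43 cells, as given above, and the *Dapl1*-led cluster held 195 of 342 cells at day 0 against 11 of 59 and 19 of 111 at days 3 and 6. The part of either in this was not tested. With CD8 T-like cells taken as any T cell with a *Cd8a* or *Cd8b1* UMI and no *Cd4* UMI the difference was lost, with *Ccl5* at 23.1 at day 0, 25.6 at day 3 and 22.7 at day 6. In undivided T cells *Ccl5* stayed between 56.1 and 75.6 and *Nkg7* between 8.79 and 11.5. Gamma delta T-like cells had *Nkg7* higher at day 6 (ratio 1.66, interval 1.34 to 2.04), where 27.4% of genes tested were higher, and *Gzmb* higher at day 9 on 5 UMIs against 3, where 24.8% were.

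*Nkg7* was the gene with most of its UMIs outside lymphocytes. Progenitor-like cells held a median of 34.7% of its UMIs in a library and the *Fcnb*-led cluster of neutrophil-like cells 14.2%. Progenitor-like cells were at 5.55, 2.59, 2.76, 3.97 and 4.98 UMIs per 10000, in each library above both neutrophil-like cells (0.17 to 0.24) and free RNA (1.18 to 2.53). Of the 7308 genes tested, 71.3% lay above neutrophil-like cells in progenitor-like cells in this way, and 42.6% of 7247 lay above free RNA. No other gene of the set did either.

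Within progenitor-like cells *Nkg7* was restricted to a few clusters. In a second clustering, the cells led by *Fcnb*, *Vcam1* and *S100a8* were at 15.2, 13.1, 12.7, 14.8 and 16.3 UMIs per 10000 and those led by *Fkbp11*, *Prss57* and *Ms4a3* at 14.5, 15.8, 11.8, 12.8 and 14.3. Cells led by *Cd34* and *Sox4* were at 1.98 to 3.02, and 7 other clusters at 0.13 to 0.54 over the libraries. The 2 high clusters had *Elane*, *Mpo* and *Prtn3*, genes of the primary granules of neutrophils, in at least 98.1% of cells, and *Ncr1* and *Klre1* in at most 1.25%. The progenitor markers *Cd34* and *Kit* were less frequent, in 2.47% and 21.0% of the *Fcnb*-led cells and 26.3% and 48.8% of the *Fkbp11*-led ones. *Cd34* was in 79.9% of the cells led by *Cd34* and *Sox4*, and *Kit* in 39.3%. *Fcnb* was in 96.9% of the *Fcnb*-led cells and 39.4% of the *Fkbp11*-led ones. *Gzma* in both was at 0.020 UMIs per 10000, beside 0.022 over all progenitor-like cells, and *Nkg7* UMIs stood at 832 to 1601 per 100 *Ccl5* UMIs in progenitor-like cells against 38.0 to 54.3 in free RNA. Basophil and mast-like cells, also granule-bearing, were at 5.48 at day 3 and 6.56 at day 9, the libraries with at least 20 such cells. The *Fcnb*-led neutrophil-like cluster was at 0.97 to 1.70, above free RNA in 0 of 5 libraries. A level under free RNA does not show that the gene was absent. *Ccl5* in that cluster was at 0.15 to 0.41, and 61 of its 2301 cells had at least 10 *Nkg7* UMIs. Those cells held 25.3% of the cluster's *Nkg7* UMIs.

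The lower *Nkg7* of progenitor-like cells at day 3 and day 6 (ratios 0.47, interval 0.43 to 0.51, and 0.50, interval 0.46 to 0.53, where 1.57% and 1.83% of genes tested were lower) stood beside fewer cells of the high clusters. These made up 27.3, 12.6, 17.3, 22.4 and 25.9% of progenitor-like cells from day 0 to day 12, with *Nkg7* at 14.8, 14.7, 12.2, 13.6 and 15.2 inside them and at 1.17, 0.801, 0.87, 1.15 and 0.965 in the rest. Levels within the parts also differed from day 0. Inside the high clusters the interval of day 6 lay below that of day 0, while that of day 3 overlapped it. In the rest, the intervals of day 3 and day 6 both lay below that of day 0. The high clusters were singled out after their *Nkg7* values were seen, and the part of their share in the lower *Nkg7* was not tested.

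**Figure D5:**
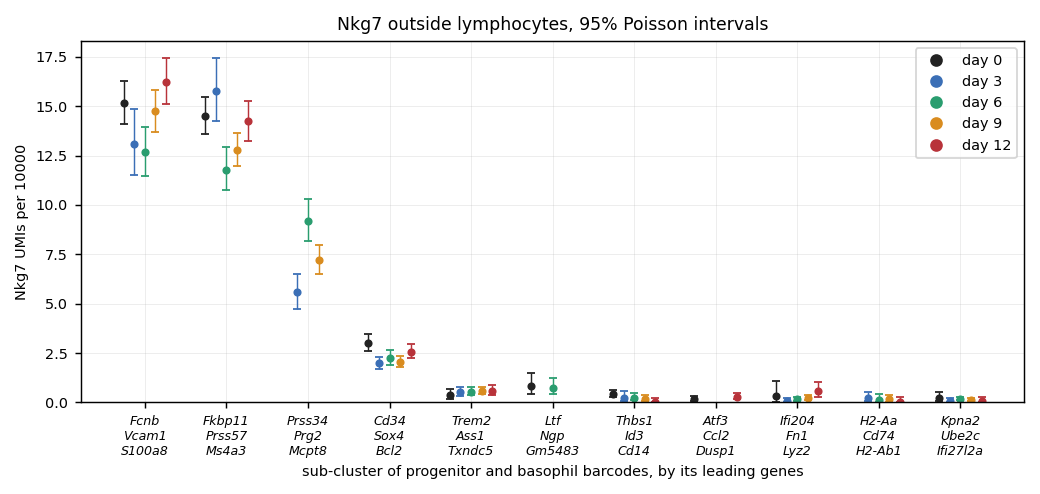
*Nkg7* UMIs per 10000 in each cluster of progenitor and basophil barcodes (named on the x axis by leading genes and ordered by the summed level), with 1 point per library of at least 10 cells and 95% Poisson intervals. The 2 clusters on the left lie between 11.8 and 16.3 in every library, and most others are under 1.

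Outside progenitor-like and basophil and mast-like cells, *Gzma*, *Nkg7* and *Ccl5* were under the level of free RNA in every library of the classes that are neither T nor NK. *Gzmb*, *Gzmm*, *Prf1* and *Ifng*, on few UMIs, were above it in at most 3 libraries of a class, basophil and mast-like cells aside, such as *Gzmm* in 3 libraries of the cluster led by *mt-Nd1*. In neutrophil-like cells *Ccl5* was at a median of 0.38 and *Gzma* at 0.045 UMIs per 10000, under the 2.27 to 6.66 and 0.37 to 0.91 of free RNA in every library. There were 10.1 to 15.7 *Gzma* UMIs per 100 *Ccl5* UMIs in neutrophil-like cells, 13.7 to 19.2 in free RNA and 25.9 to 38.4 in NK-like cells. *Nkg7* UMIs per 100 *Ccl5* UMIs stood at 49.9 to 79.6 in neutrophil-like cells, above free RNA (38.0 to 54.3) in each library. The share of neutrophil-like cells with a UMI was 1.46% for *Gzma* and 11.4% for *Ccl5*. Of the pairs of the 7 genes with 12 classes of other cells, 3 were above free RNA in every library with at least 20 cells, *Nkg7* in progenitor-like cells and *Nkg7* and *Gzmb* in basophil and mast-like cells. The last rests on 2 libraries and was lost after thinning to 500 UMIs, and 4 cells held 94.7% of the 19 *Gzmb* UMIs of that class. Of genes tested in basophil and mast-like cells, 43.6% did the same. A few barcodes of other classes carried many UMIs of the set. In the cluster led by *H2-Eb1* and *Cd83*, 9 of 1199 cells had at least 10 UMIs and held 60.5% of the cluster's *Ccl5* UMIs. Among B-like cells of day 12, 1 cell held 22 of 24 *Gzma* UMIs, and among plasmacytoid dendritic-like cells of day 6, 1 held 17 of 18 *Gzmb* UMIs.

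The pattern of each gene over 72 class-by-library sums of 17 classes was compared with that of 11133 genes. Nearest to *Gzma* were the NK receptor genes *Klri2* (r = 0.95), *Klra4* (0.94) and *Klra8* (0.94), and nearest to *Gzmb* were *Sytl3* (0.87), *Gzma* (0.87) and *Klra3* (0.86). *Ccl5* was most like *Il2rb* (0.97), *Gm19585* (0.96) and *Samd3* (0.95), and *Gzmm* like *Ctsw* (0.87), *Gm29243* (0.86) and *Samd3* (0.86). *Nkg7* was nearest to *Ctsw* (0.86), *Cst7* (0.85) and *Txk* (0.85), and *Ifng* to *Tbx21* (0.90), *Fasl* (0.89) and *Eomes* (0.88). *Prf1* was nearest to *Khdc1a* (0.86), *Trdv2-2* (0.82) and *Tmem37* (0.82), on few UMIs. Inside the set, the closest pairs were *Gzma* with *Gzmb* (0.87), *Ccl5* with *Ifng* (0.86) and *Gzmb* with *Ifng* (0.85), and the least close *Gzmm* with *Prf1* (0.47). The sums of a library share its depth and its free RNA, so these are descriptions.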

How the data were processed

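The authors aligned 3' single-cell libraries of 5 mouse marrows to mm10 with Cell Ranger and deposited unfiltered UMI counts per gene and barcode (unit: raw counts, not normalized). Barcodes with at least 500 UMIs were kept, with no mitochondrial limit, and those of at most 100 UMIs were summed as free RNA. Cells were clustered with scanpy 1.11.5 and leidenalg 0.10.2 on log-normalized values (893 variable genes, 20 components, resolution 0.6), and T and NK barcodes again (763 genes, 15 components, resolution 1.5). The 7 genes and the lists, 76 genes in all, took no part. Classes were named where at least 3 markers were found in at least 20% of cells and at least 2-fold above other clusters. T clusters needed 3 T markers and then both CD8 or at least 2 CD4 markers at that fold. The classes were rebuilt here and are not the authors'. Levels are summed counts per 10000 UMIs with exact Poisson intervals, and shares have exact Clopper-Pearson intervals, at 95%, for counting error only. Fold changes used a pseudocount of 0.1. Depth was 33425695 to 43554233 UMIs per library. Doublets were kept. Scrublet marked 158 barcodes at day 0 and 0 to 2 in each other library, so it has not worked there. Libraries shared 44 to 73 barcodes per pair, beside 43.6 to 68.9 by chance. Calculations were tested on simulated counts. The genes, lists and named genes (the 7, the listed pathway genes and the 3 genes most like each) were chosen with earlier results of these data known. Alternatives were other UMI, mitochondrial and doublet limits, cluster resolution, marker-based classes, thinning, means over cells, pseudocounts, no low-value filter and free RNA from barcodes of at most 20 UMIs. Results that need withheld genes are not reported here.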

Additional observations from a re-analysis of the deposited data

How the results depend on the processing

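With 1 mouse per day no library could be left out of a group. No paired analysis was possible because each day holds 1 library and no replicate numbers are shared. The count of genes higher in CD8 T-like than in CD4 T-like cells was 1, and it became 2 with at least 1000 UMIs per barcode, 0 at a higher cluster resolution, 3 with classes taken from marker UMIs and 0 after thinning to 500 UMIs, while the mitochondrial limit below kept 1, *Nkg7* in place of *Gzmm*. The 6 values of NK-like cells past 1.5-fold became 0 after thinning to 500 UMIs, where *Ifng* and *Gzmm* no longer passed the 10% filter. The thinned log2 change of *Gzmm* at day 6 turned to -2.38, which depends on the pseudocount since no *Gzmm* UMI was left there. They became 9 with a limit of 3 median absolute deviations on mitochondrial UMIs, which left 28 NK-like and 1 CD8 T-like cell at day 12. The median over the 7 genes of their UMI share in NK-like cells was 27.8%, and 36.0% as a mean over cells. The count of genes higher in NK-like than in CD8 T-like cells was 6 under every alternative but marker-based classes, with 5 (without *Prf1*), and thinning, with 4 (without *Prf1* and *Ifng*). Thinning also left 2 of the 3 pairs above free RNA, without *Gzmb* in basophil and mast-like cells. The 2 higher values of NK-like cells against day 0 became 1 with a pseudocount of 1 and 5 under the mitochondrial limit. The lower *Ccl5* of CD8 T-like cells at days 3 and 6 was lost with marker-based classes, at 25.6 and 22.7 against 23.1 at day 0. Of the values for named genes, 357 moved by no more than their counting interval allows, 41 by more and 1 reversed. Leaving out the 5% of barcodes with the highest doublet scores was chosen after seeing the data. Depth limits *Prf1* and *Gzmm*, with 1 to 6 UMIs per NK-like library.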
